A study of Homo sapiens with 16 samples.

Results

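The 39 genes described here encode the machinery that copies DNA, from the complexes that mark and open origins to the enzymes that supply deoxynucleotides. They were chosen by symbol, and all 39 symbols on the list were found among the 60669 genes of both tables used. The RNA came from HMC3, an immortalised human cell line that the labels describe as microglial. The cells were either wild type or labelled knockout of METTL3, the catalytic subunit of the methyltransferase that places N6-methyladenosine (m6A) on RNA, and no treatment or time point is given. Total RNA was made into 6 libraries after depletion of ribosomal RNA, 3 for each genotype, and into 10 poly(A) libraries by Smart-seq2, 5 for each genotype. The labels do not say whether the knockout line is 1 clone, nor whether replicates were separate cultures, so p-values measure only the spread between these samples, which may be technical.

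DNA replication starts at origins, where the origin recognition complex (ORC), with CDC6 and CDT1, loads the ring-shaped MCM2-7 helicase in G1 phase. In S phase, CDC45, the GINS complex and MCM10 turn the loaded ring into an active helicase. Primase and polymerase alpha lay down primers, the RFC clamp loader places the PCNA ring, and polymerases delta and epsilon extend the strands while RPA covers single-stranded DNA. FEN1 and LIG1 trim and join the lagging-strand fragments. Many of these genes are textbook targets of E2F transcription factors, and their mRNA is higher in proliferating cells than in resting ones.

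The rRNA-depleted libraries held 266157 to 487272 reads in the wild type and 512627 to 1267171 reads in the knockout label, recovered from the TPM values and gene lengths. TPM scales each gene's reads by gene length and gives its share of a library. Levels of different genes can thus be compared, though TPM does not correct for GC content. The reads of knockout-labelled libraries 1 and 2 agree within sampling noise (chi-square 1.02 per degree of freedom, against 1.16 to 1.54 for the other pairs within a genotype), so they were averaged and counted as 1 sample, giving 3 samples of the wild type and 2 of the knockout label. METTL3 itself was measured at 31.2, 31.6 and 25.4 TPM (wild type) and 39.2, 39.96 and 42.7 TPM (knockout label; limma adjusted p = 0.106), so its mRNA does not check the label. The authors' deposited table for the poly(A) libraries holds 1 comparison without values for single libraries, and leaves the numerator of its ratio unnamed. Values above 0 were read as higher in the knockout label, because this reading gave matching signs in 91.5% of the 177 genes that passed in both types and were past 1 on the log2 scale in each. Of 11 microglia markers, 8 were at 0 TPM in all 6 libraries (AIF1, CX3CR1, P2RY12, TMEM119, ITGAM, PTPRC, SPI1 and C1QA), and the list summed to between 0 and 6.47 TPM. The highest was TREM2, from 1 read in wild-type library 1 and 1 read in knockout-labelled library 1. The summed level of 7 fibroblast and mesenchymal markers was 11650 to 14070 TPM in the wild type, led there by COL1A1, and 5625 to 5722 TPM in the knockout label. COL1A1 carried that difference: FN1, VIM and THY1 rose, and COL1A1, COL1A2 and PDGFRB fell. Without COL1A1 the sum was 2038 to 2156 TPM in the wild type and 4826 to 4905 TPM in the knockout label. COL3A1 was at 2.08 TPM in wild-type library 1 and at 0 TPM in the other libraries. In the authors' deposited table FN1 (-0.34) fell and COL1A2 (0.30) rose, against their direction here. COL1A1 (-0.79) fell and VIM (0.49) and THY1 (0.58) rose there too, and PDGFRB did not pass. The part of these markers in the results below was not tested.

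Promoters are shown first for genes on which the results turn: 4 helicase subunits that were lower in the poly(A) comparison, GINS1, which was lower in both library types, and RRM2, which was higher in both. RefSeq promoter windows of build GRCh38.p14, from 250 bases before to 50 bases after the start site, matched 34 of the 39 genes. Capitals mark an E2F-type motif, searched as TTTGGCGC, TTTCCCGC, TTTGCCGC or TTTCGCGC, and CCAAT, the motif bound by the factor NF-Y, both on either strand. Some matches overlap: in MCM2 and MCM6 E2F-type matches on opposite strands share part of their bases, and in MCM7 an E2F-type match runs into a CCAAT. MCM7 has 3 windows and RRM2 has 2 in RefSeq, and 1 of each is shown. The regions, read 5′ to 3′ on the strand of the gene, are chr3:127598161-127598460 (plus strand), chr6:52284693-52284992 (minus), chr2:135876394-135876693 (minus), chr7:100101348-100101647 (minus), chr20:25407423-25407722 (plus) and chr2:10122489-10122788 (plus).
MCM2: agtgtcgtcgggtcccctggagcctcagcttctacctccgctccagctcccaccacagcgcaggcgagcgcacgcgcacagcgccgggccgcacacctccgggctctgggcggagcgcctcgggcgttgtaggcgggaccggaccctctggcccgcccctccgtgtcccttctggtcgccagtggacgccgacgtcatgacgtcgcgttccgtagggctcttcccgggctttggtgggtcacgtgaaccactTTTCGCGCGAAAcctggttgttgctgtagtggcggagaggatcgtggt
MCM3: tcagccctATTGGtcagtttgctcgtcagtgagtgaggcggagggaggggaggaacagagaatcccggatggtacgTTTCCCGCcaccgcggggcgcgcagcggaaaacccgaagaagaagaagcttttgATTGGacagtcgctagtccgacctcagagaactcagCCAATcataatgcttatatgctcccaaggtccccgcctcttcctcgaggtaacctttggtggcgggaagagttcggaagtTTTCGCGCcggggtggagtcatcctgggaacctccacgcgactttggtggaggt
MCM6: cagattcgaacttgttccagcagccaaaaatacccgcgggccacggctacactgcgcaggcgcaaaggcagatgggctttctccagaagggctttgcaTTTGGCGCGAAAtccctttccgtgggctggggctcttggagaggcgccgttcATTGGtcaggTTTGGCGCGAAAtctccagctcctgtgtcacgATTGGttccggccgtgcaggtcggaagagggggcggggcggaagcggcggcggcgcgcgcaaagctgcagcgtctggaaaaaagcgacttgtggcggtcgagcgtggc
MCM7: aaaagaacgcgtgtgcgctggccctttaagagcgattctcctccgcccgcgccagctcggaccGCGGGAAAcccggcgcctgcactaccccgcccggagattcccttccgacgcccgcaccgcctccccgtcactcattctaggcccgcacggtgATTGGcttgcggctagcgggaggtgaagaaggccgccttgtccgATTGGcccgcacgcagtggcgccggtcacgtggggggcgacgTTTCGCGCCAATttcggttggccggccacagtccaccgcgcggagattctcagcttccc
GINS1: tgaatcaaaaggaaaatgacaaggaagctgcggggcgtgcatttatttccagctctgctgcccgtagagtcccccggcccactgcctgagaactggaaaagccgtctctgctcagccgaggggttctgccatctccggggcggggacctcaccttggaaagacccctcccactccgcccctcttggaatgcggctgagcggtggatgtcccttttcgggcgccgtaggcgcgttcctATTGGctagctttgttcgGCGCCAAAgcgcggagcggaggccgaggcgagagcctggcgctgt
RRM2: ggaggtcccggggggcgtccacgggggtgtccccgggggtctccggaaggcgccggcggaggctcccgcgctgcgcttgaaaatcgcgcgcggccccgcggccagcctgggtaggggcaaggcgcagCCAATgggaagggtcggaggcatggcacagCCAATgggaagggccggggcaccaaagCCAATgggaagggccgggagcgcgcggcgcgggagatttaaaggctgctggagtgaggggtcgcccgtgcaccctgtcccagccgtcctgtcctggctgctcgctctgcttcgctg

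An E2F-type motif lay in a window of 16 of the 34 matched replication genes (47.1%), against 3.99% of 27305 genes in the same RefSeq set and 3.31% of all 35116 windows of 300 bases. CCAAT lay in 21 of the 34 (61.8%), against 39.7% of all genes. In MCM2 the 12 palindromic bases in capitals begin 2 bases after the start site, and in MCM7 an E2F-type match begins 9 bases before it. RRM2 had 3 CCAAT matches, at 123, 93 and 66 bases before the start site, and no match to the E2F-type letters in either window. A match describes the letters of the window only, not binding.

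In the rRNA-depleted libraries, 14 of the 39 genes rose and 8 fell in the knockout label at a limma adjusted p under 0.05. The 14 are 35.9% of the list, against 22.9% of all 14789 genes tested, and the 8 are 20.5%, against 12.4%. Clamp loader subunits (RFC1, RFC3, RFC4, RFC5), PCNA, RPA1, RPA2, PRIM2, RRM2, TYMS, MCM7, ORC4, CDT1 and MCM10 rose. MCM2, MCM4, ORC2, CDC6, GINS1, GINS4, FEN1 and LIG1 fell. The 22 calls stand against 35.3% of all genes called in either direction. In bulk RNA, a change in the share of cells in S phase and a change in replication mRNA per cell cannot be told apart.

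The median log2 change of the 39 genes was 0.60 (log2 of TPM + 1, a scale that shrinks the differences of low genes), against 0.41 for all genes tested, and 27 of the 39 (69.2%) lay above 0, against 62.4% of all genes. That shift of all genes depends on scaling: with median ratio scaling it was 0.11, the share of higher genes among all calls went from 64.8% to 48.6%, and 8 replication genes were higher and 9 lower (against 16% and 16.9% of all genes, 32.9% in both directions together). MCM7, ORC4, CDT1, MCM10, PCNA and TYMS then lost their call, and GINS2 became lower, at -0.81. Values relative to the median of all genes are therefore given below. When reads were thinned to the shallowest library, 8 genes were higher and 8 lower, while the calls over all genes went from 5220 to 3536. ORC4, CDT1, MCM10, PCNA, RFC3, RPA2 and TYMS then lost their call, and RPA3 became higher, at 2.03. Knockout-labelled library 3 decided many calls: without it 1 sample remains with that label, and 4 genes (MCM7, PRIM2, RFC1 and RPA1) were higher and 3 (MCM2, MCM4 and GINS1) lower, with 1663 calls over all genes.

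**Figure D1:**
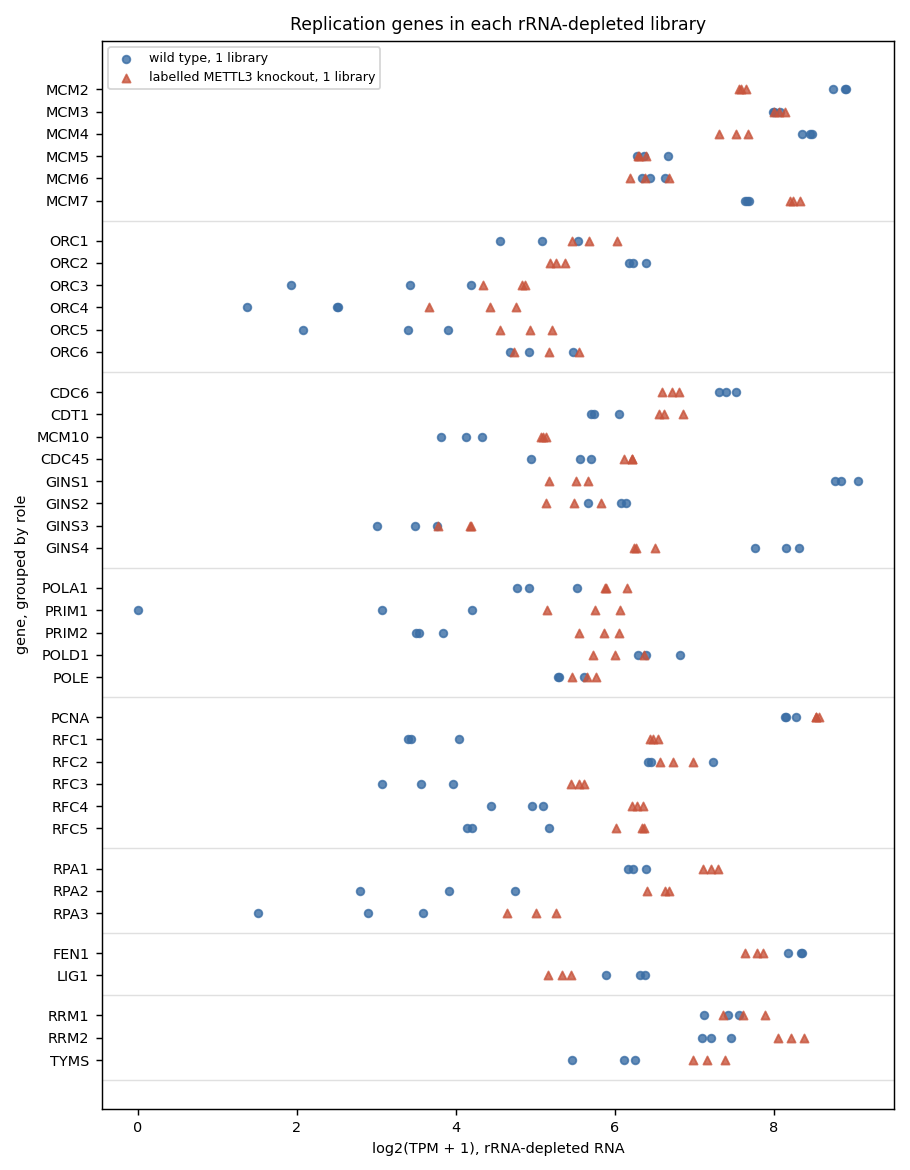
Level of each replication gene in each rRNA-depleted library as log2(TPM + 1), with circles for the 3 wild-type and triangles for the 3 knockout-labelled libraries and lines between roles. The knockout-labelled triangles lie wholly to the right of the circles for 21 genes and wholly to the left for 8.

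The 6 libraries did not overlap for 29 of the genes: 21 were higher in every knockout-labelled library (53.8%, against 38.4% of all genes) and 8 lower (20.5%, against 19.9%). Of these 21, 7 did not pass the test: ORC3, ORC5, CDC45, GINS3, POLA1, PRIM1 and RPA3. In the wild type, 9 genes had fewer than 10 reads in every library (ORC3, ORC4, ORC5, GINS3, PRIM1, PRIM2, RFC3, RPA2 and RPA3), so their wild-type levels rest on few reads. No replication gene had 3 or fewer reads in all libraries of a genotype.

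In the poly(A) libraries the picture was one of small falls. By the authors' deposited table, 13 of the 39 genes fell (33.3%, against 10.3% of 14009 genes with an adjusted p) and 2 rose (5.13%, against 9.55%). The falls in the authors' deposited table ran from 1.18-fold (FEN1) to 1.53-fold (GINS1). A log2 fold change below 0 was listed for 27 of the 39 (69.2%, against 48.5% of all genes) in the authors' deposited table, with a median of -0.17 against 0.02. The 2 that rose there were ORC3 and RRM2.

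**Figure D2:**
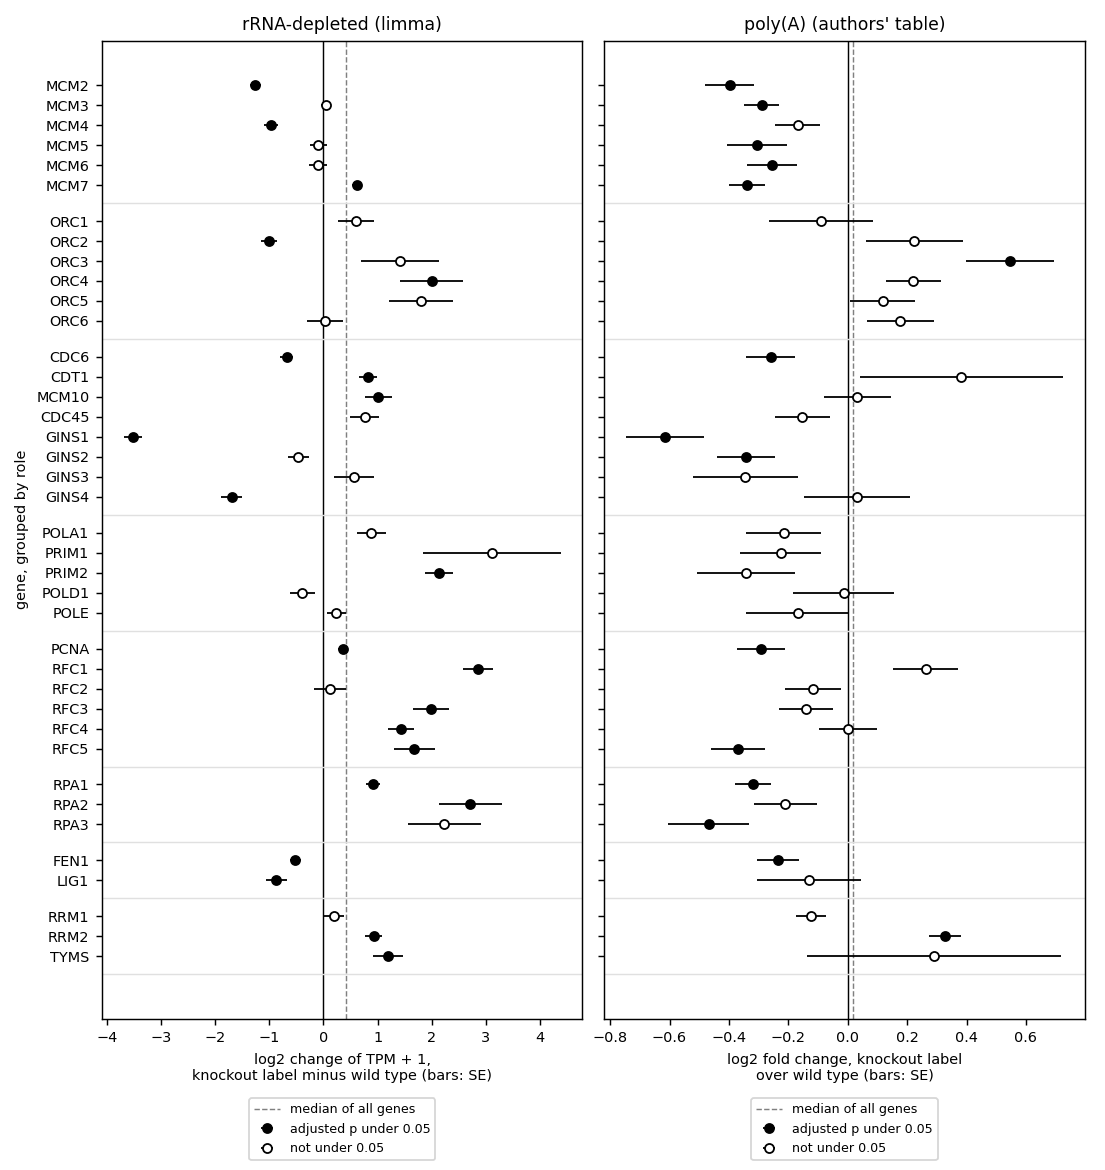
Log2 change of each replication gene with its SE, on the left from limma in the rRNA-depleted libraries and on the right from the authors' deposited table for the poly(A) libraries, with filled points for an adjusted p under 0.05 and a dashed line at the median of all genes. The left panel spans -3.51 (GINS1) to 3.11 (PRIM1) and the right panel -0.61 (GINS1) to 0.55 (ORC3), so the axes differ in scale.

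The 6 subunits of the replicative helicase, MCM2 to MCM7, form a ring of 1 copy each, yet their mRNAs did not move together in the rRNA-depleted libraries. MCM2 (ENSG00000073111; chromosome 3, 127598223 to 127622436, plus strand, GRCh38) had 478, 429 and 473 TPM in the wild type, taking its libraries in order, against 199.7, 191 and 187 TPM in the knockout label. The groups lay far apart. MCM2 fell by 1.26 on the log2 scale (SE 0.10, limma adjusted p = 0.00176), its mean going from 459.8 ± 27.2 (SD, n = 3) to 191 ± 5.87 TPM (SD, n = 2). MCM4, which also lines the ring, had 349.8, 326 and 355 TPM in the wild type and 203, 182 and 158 TPM in the knockout label, again without overlap. It fell by 0.97 (SE 0.12, limma adjusted p = 0.00473). MCM7 moved the other way, from 202, 205 and 198 TPM to 301, 294 and 321 TPM, a rise of 0.61 (SE 0.09, limma adjusted p = 0.00764). That rise was 0.20 relative to the median of all genes and 0.26 with median ratio scaling, where it did not pass (limma adjusted p = 0.13).

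MCM3, MCM5 and MCM6, the other subunits, overlapped between the genotypes. MCM3 had 253 to 268 TPM in the wild type and 254 to 280.1 TPM in the knockout label, with a log2 change of 0.04 that was -0.31 with median ratio scaling. MCM5 (-0.09) and MCM6 (-0.10) stood at 76.2 to 100.4 TPM and 79.96 to 98.04 TPM in the wild type. Neither passed the test. MCM5 was at 0.40 with the trend of GC content removed (limma adjusted p = 0.133). With voom, a limma fit to the recovered reads, it was at -0.40 and passed (limma adjusted p = 0.0237). Antisense genes (TPRA1 and AC023593.1) overlap 23.6% of the exon bases of MCM2, and it is not stated whether the authors counted by strand.

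The poly(A) libraries showed the subunits on 1 side. All 6 had a log2 fold change below 0 in the authors' deposited table, and 5 passed its threshold. MCM2 was lowest at -0.40 (SE 0.08, adjusted p = 5.17e-05 in the authors' deposited table). MCM7 followed at -0.34 (SE 0.06, adjusted p = 2.01e-06 in the authors' deposited table), from a mean normalized count of 899.7. MCM5 (-0.30), MCM3 (-0.29) and MCM6 (-0.26) also fell in the authors' deposited table. MCM4, the subunit that did not pass there, was at -0.17 (adjusted p = 0.105 in the authors' deposited table). MCM2 was thus lower in both library types, and MCM7 lower in poly(A) and higher in rRNA-depleted RNA.

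Ratios between genes within a library do not depend on a scaling factor of the whole library. A trend with GC content does not cancel in them where the GC content of the genes differs. The 15 pairs plotted were chosen after the values were seen and are a description. MCM2 stood at 2.09 to 2.39 times MCM7 in the wild type and at 0.58 to 0.66 times MCM7 in the knockout label. The MCM4 to MCM7 ratio was 1.59 to 1.80 against 0.49 to 0.68. MCM2 over MCM3 was 1.68 to 1.87 against 0.70 to 0.75.

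**Figure D3:**
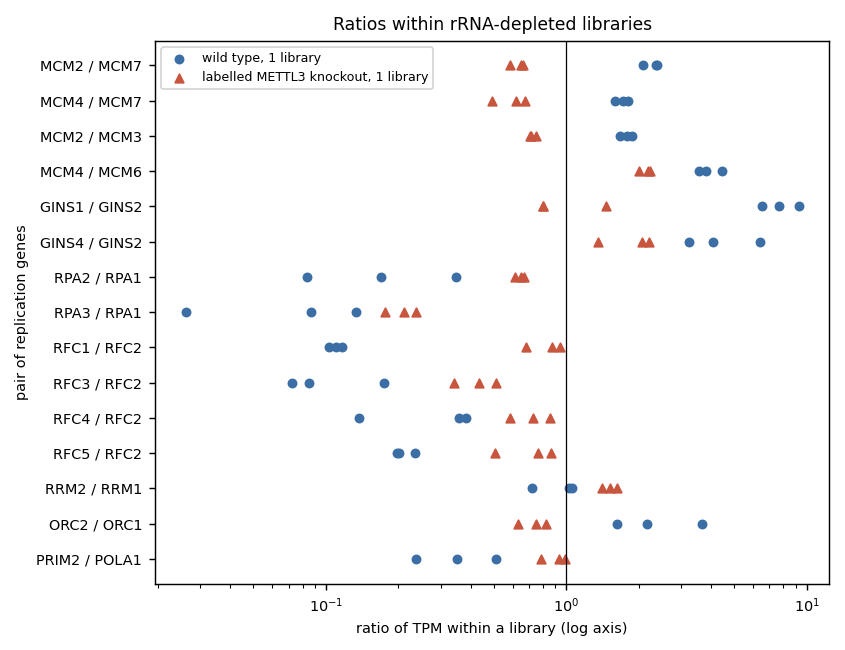
Ratio of TPM between replication genes within each rRNA-depleted library on a log axis, with circles for the 3 wild-type and triangles for the 3 knockout-labelled libraries. In all 15 pairs plotted the 2 genotypes do not overlap, and MCM2 over MCM7 lies at 2.09 or above in the wild type and at 0.66 or below in the knockout label.

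The origin recognition complex binds origins through its subunits ORC1 to ORC6. Only ORC2 and ORC4 passed the test in the rRNA-depleted libraries, in opposite directions. ORC2 had 82.5, 70.9 and 73.9 TPM in the wild type and 37.3, 40.4 and 35.4 TPM in the knockout label. The groups did not overlap, and ORC2 fell by 1.01 (SE 0.14, limma adjusted p = 0.00652). ORC4 had 1.59, 4.64 and 4.70 TPM in the wild type, from 2, 4 and 7 reads, and 25.9, 20.6 and 11.6 TPM in the knockout label. Its log2 change of 2.0 (SE 0.58) passed narrowly (limma adjusted p = 0.0476) and did not pass under 10 of 15 alternatives, including without any 1 of wild-type libraries 1, 2 and 3 (limma adjusted p of 0.0734, 0.0595 and 0.0676).

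ORC3 and ORC5 lay above every wild-type library but did not pass, with log2 changes of 1.41 (SE 0.72) and 1.80 (SE 0.59, limma adjusted p = 0.067). ORC5 passed without wild-type library 2, at 2.19 (limma adjusted p = 0.0417), or library 3, at 1.28 (limma adjusted p = 0.0445). ORC3 had 17.3, 2.81 and 9.74 TPM in the wild type, from 9, 1 and 6 reads, and 28.2, 27.5 and 19.3 TPM in the knockout label. ORC1 (0.60) and ORC6 (0.03) overlapped, and ORC6 turned to -0.32 with median ratio scaling. In poly(A) RNA the authors' deposited table put ORC3 at 0.55 (SE 0.15, adjusted p = 0.00245), the largest rise among the 39 genes there. ORC2, lower in rRNA-depleted RNA, was at 0.22 (adjusted p = 0.382) in the authors' deposited table. The other 4 subunits did not pass in the authors' deposited table, with values from -0.09 (ORC1) to 0.22 (ORC4).

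Among the factors that license origins and activate the helicase, GINS1 showed the largest fall of the 39 genes in both library types. GINS1 (ENSG00000101003; chromosome 20, 25407727 to 25452628, plus strand, GRCh38) encodes PSF1, a subunit of the 4-member GINS complex that joins the helicase. It had 533, 432.5 and 459 TPM in the wild type against 49.4, 44.4 and 34.9 TPM in the knockout label. The lowest wild-type library stood far above the highest knockout-labelled one. GINS1 fell by 3.51 on the log2 scale (SE 0.17, limma adjusted p = 0.000879), its mean going from 475 ± 51.96 (SD, n = 3) to 40.9 ± 8.49 TPM (SD, n = 2), which is 11.6-fold lower. The authors' deposited table gave GINS1 a log2 fold change of -0.61 (SE 0.13, adjusted p = 5.89e-05), which is 1.53-fold lower, from a mean normalized count of 107.6.

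The other GINS subunits differed among themselves. GINS4 had 283, 216 and 317 TPM in the wild type and 74.7, 75.5 and 89.6 TPM in the knockout label. It fell by 1.70 (SE 0.20, limma adjusted p = 0.00392), and was at 0.03 (adjusted p = 0.935) in the authors' deposited table. GINS2 overlapped by library, at 49.5 to 69.4 TPM against 33.9 to 55.4 TPM, with a log2 change of -0.46 (limma adjusted p = 0.122); it passed without wild-type library 3, at -0.61 (limma adjusted p = 0.0464). GINS2 fell in the authors' deposited table, at -0.34 (SE 0.10, adjusted p = 0.00402). GINS3 did not pass in either, at 0.56 in rRNA-depleted RNA from 5 to 9 reads per wild-type library and -0.34 (adjusted p = 0.169) in the authors' deposited table. The wild type held 6.5 to 9.27 times as much GINS1 as GINS2 and the knockout label 0.80 to 1.46 times, although the subunits share 1 complex. Antisense genes overlap 23.6% of the exon bases of GINS4 and 10.9% of those of GINS3.

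CDC6, an ATPase that helps to load the helicase, had 158, 168 and 182 TPM in the wild type and 104, 95.2 and 111 TPM in the knockout label. CDC6 fell by 0.68 (SE 0.12, limma adjusted p = 0.0117), and fell in the authors' deposited table, at -0.26 (SE 0.08, adjusted p = 0.0125). CDT1, its partner in loading, rose from 50.96, 65.1 and 52.04 TPM to 114.5, 96.9 and 92.9 TPM, a difference of 0.82 (SE 0.17, limma adjusted p = 0.0173). MCM10, which helps to start unwinding, rose from 12.99, 18.97 and 16.5 TPM to 32.6, 34.2 and 33.2 TPM, a difference of 1.01 (SE 0.25, limma adjusted p = 0.0299). Both rises missed the threshold with median ratio scaling, at 0.47 for CDT1 and 0.67 for MCM10. MCM10 also missed it in limma without wild-type library 1 (adjusted p 0.0554) or 3 (adjusted p 0.0597). CDC45, the helicase cofactor, was higher in every knockout-labelled library but did not pass (0.76, limma adjusted p = 0.0762). None of CDT1 (0.38), MCM10 (0.03) and CDC45 (-0.15) passed in the authors' deposited table, where CDT1 had a mean normalized count of 11.9.

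Primase is the enzyme of PRIM1 and PRIM2 that starts each new strand with RNA. PRIM2 had 10.6, 13.3 and 10.3 TPM in the wild type, from 6 to 8 reads, and 65.4, 56.9 and 45.7 TPM in the knockout label. The groups did not overlap, and PRIM2 rose by 2.13 on the log2 scale (SE 0.26, limma adjusted p = 0.00422), or 1.72 relative to all genes. PRIM1 had 17.4, 0 and 7.37 TPM in the wild type, from 6, 0 and 3 reads, and 66.0, 52.8 and 34.5 TPM in the knockout label. Its log2 change of 3.11 had an SE of 1.27 and did not pass (limma adjusted p = 0.115).

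The catalytic polymerase subunits did not pass in either library type. POLA1, of the primer-extending polymerase alpha, was at 26.1 to 44.7 TPM in the wild type and 57.5 to 69.8 TPM in the knockout label (0.88, limma adjusted p = 0.0533); it passed without wild-type library 1, at 1.11 (limma adjusted p = 0.022), and without knockout-labelled library 2, at 0.95 (limma adjusted p = 0.0479). POLD1, of the lagging-strand polymerase delta, was at -0.39, and POLE, of the leading-strand polymerase epsilon, at 0.24. With the GC trend removed POLD1 was at 0.40 (limma adjusted p = 0.199), and POLE was at 0.70 and passed (limma adjusted p = 0.0423). POLD1 passed as lower with voom (-0.81, limma adjusted p = 0.000328) and with a replicate block (-0.47, limma adjusted p = 0.0355). With median ratio scaling POLE was at -0.11. All 5 genes of this group lay below 0 in the authors' deposited table, from -0.34 (PRIM2, adjusted p = 0.137) to -0.01 (POLD1). Mean levels of the 5 genes spanned 11.0-fold in the wild type, from 8.27 to 90.8 TPM, and 1.48-fold in the knockout label, from 46.9 to 69.3 TPM. The lowest was PRIM1, with 6, 0 and 3 wild-type reads and 40.7% GC, and the highest POLD1, with 65.0% GC. The other roles also narrowed, except Okazaki fragment maturation, which went from 4.28-fold to 5.56-fold. The part of low reads and GC content in these spans was not tested.

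The clamp loader RFC, a ring of 5 subunits that opens PCNA and closes it on DNA, rose in 4 of its 5 subunits in rRNA-depleted RNA, also with median ratio scaling. RFC1, the largest subunit (ENSG00000035928; chromosome 4, 39287456 to 39366375, minus strand, GRCh38), had 9.50, 15.4 and 9.81 TPM in the wild type, from 9 to 11 reads, against 88.4, 91.8 and 85.6 TPM in the knockout label. RFC1 rose from a mean of 11.6 ± 3.33 (SD, n = 3) to 87.85 ± 3.16 TPM (SD, n = 2), a difference of 2.85 on the log2 scale (SE 0.27, limma adjusted p = 0.00254) and 2.44 relative to all genes. No library of one genotype came near the other.

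RFC3 rose from 7.39, 10.8 and 14.6 TPM to 47.8, 45.7 and 42.7 TPM, a difference of 1.98 (SE 0.33, limma adjusted p = 0.0102). With thinned reads it was at 1.93 and did not pass (limma adjusted p = 0.0509). RFC4 rose from 33.1, 20.7 and 29.96 TPM to 80.5, 76.8 and 73.3 TPM (1.44, SE 0.24, limma adjusted p = 0.0101). RFC5 rose from 17.4, 35.04 and 16.6 TPM to 81.5, 80.1 and 63.6 TPM (1.68, SE 0.37, limma adjusted p = 0.0222). The RFC5 call was lost in limma without wild-type library 1 (adjusted p 0.057) or 3 (adjusted p 0.0529). RFC2, the remaining subunit, overlapped at 83.9 to 149.8 TPM against 94.0 to 125.6 TPM, with a log2 change of 0.12 that was -0.23 with median ratio scaling. RFC2 was thus the most abundant subunit in the wild type, with RFC1 at 0.10 to 0.12 times its level, and RFC1 was at 0.68 to 0.94 times RFC2 in the knockout label. With the GC trend removed the log2 change of RFC1 (41.7% GC) was 2.38 and that of RFC2 (53.6% GC) 0.50.

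PCNA, the sliding clamp that holds polymerases on DNA, had 284, 281 and 309 TPM in the wild type and 367, 369 and 378 TPM in the knockout label. Its log2 change of 0.35 (SE 0.10, limma adjusted p = 0.0383) lay below the 0.41 of all genes, and was 0.00 with median ratio scaling. PCNA also missed the threshold in limma without wild-type library 1 (adjusted p 0.0953) or 2 (adjusted p 0.0726). In the authors' deposited table PCNA fell, at -0.29 (SE 0.08, adjusted p = 0.00335), and so did RFC5, at -0.37 (SE 0.09, adjusted p = 0.000574). RFC1 (0.26), RFC4 (0.00), RFC2 (-0.12) and RFC3 (-0.14) did not pass in the authors' deposited table.

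RPA, the trimer that coats single-stranded DNA, was higher in every knockout-labelled rRNA-depleted library for each of its 3 subunits, and lower in poly(A) RNA for 2 of them. RPA1, the large subunit, had 82.5, 73.5 and 70.9 TPM in the wild type and 146.5, 157 and 136 TPM in the knockout label. It rose by 0.92 (SE 0.13, limma adjusted p = 0.00615), or 0.51 relative to all genes. RPA2, the middle subunit, had 14.0, 25.6 and 5.93 TPM in the wild type, from 4, 5 and 2 reads, and 97.95, 101.7 and 83.2 TPM in the knockout label. It rose by 2.71 (SE 0.58, limma adjusted p = 0.0198). With thinned reads RPA2 was at 3.49 (SE 1.46) and did not pass (limma adjusted p = 0.131). RPA3, the small subunit, had 10.96, 6.40 and 1.85 TPM from 5, 2 and 1 reads in the wild type and 31.1, 37.3 and 24.0 TPM in the knockout label. Its log2 change of 2.23 (SE 0.68) did not pass (limma adjusted p = 0.054), and passed without wild-type library 1 (adjusted p 0.0389) or 3 (adjusted p 0.0459) and without knockout-labelled library 1 (adjusted p 0.0487).

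The subunits of RPA lay closer to each other in the knockout label, where RPA2 was at 0.61 to 0.67 times RPA1, against 0.08 to 0.35 times in the wild type. RPA1 fell in the authors' deposited table, at -0.32 (SE 0.06, adjusted p = 5.33e-06). RPA3 was at -0.47 (SE 0.14, adjusted p = 0.00539) in the authors' deposited table, the second lowest value after GINS1. RPA2 was at -0.21 (adjusted p = 0.161) in the authors' deposited table.

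The genes for Okazaki fragment maturation both fell in rRNA-depleted RNA. FEN1, the flap endonuclease, had 323, 288 and 326 TPM in the wild type and 197.5, 231 and 219 TPM in the knockout label. It fell by 0.52 (SE 0.10, limma adjusted p = 0.0155), and fell in the authors' deposited table, at -0.23 (SE 0.07, adjusted p = 0.00773). LIG1, the ligase that seals the fragments, had 81.9, 78.7 and 58.3 TPM in the wild type and 34.7, 42.5 and 39.3 TPM in the knockout label. It fell by 0.87 (SE 0.19, limma adjusted p = 0.0224), a call lost when wild-type library 1 (adjusted p 0.0601) or 2 (adjusted p 0.0526) was left out. The authors' deposited table listed LIG1 at -0.13 (adjusted p = 0.683). With the GC trend removed neither FEN1 (-0.14, limma adjusted p = 0.352) nor LIG1 (-0.39, limma adjusted p = 0.194) passed.

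For nucleotide supply, RRM2 was the gene higher in both library types. RRM2 is the regulated small subunit of ribonucleotide reductase, the enzyme that makes deoxynucleotides. It had 174, 136 and 146 TPM in the wild type and 332, 297 and 265 TPM in the knockout label, without overlap. RRM2 rose by 0.93 (SE 0.15, limma adjusted p = 0.00968), or 0.52 relative to all genes. It also rose in the authors' deposited table, at 0.33 (SE 0.05, adjusted p = 5.61e-08), from a mean normalized count of 1513, the highest of the 39 genes. RRM1, the large subunit, overlapped in rRNA-depleted RNA, with a log2 change of 0.19 that was -0.17 with median ratio scaling, and was at -0.12 (adjusted p = 0.069) in the authors' deposited table. TYMS, the thymidylate synthase, rose from 43.01, 75.4 and 67.9 TPM to 166, 142 and 125.5 TPM, a difference of 1.19 (SE 0.27, limma adjusted p = 0.0246) that did not pass with median ratio scaling (0.84). Antisense genes (ENOSF1 and TYMSOS) overlap 46.6% of the exon bases of TYMS, and TYMS was at 0.29 (adjusted p = 0.71) in the authors' deposited table.

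Set side by side, 9 of the 39 genes were called in both library types (23.1%, against 10.6% of 12498 genes tested in both). MCM2, CDC6, GINS1 and FEN1 were lower in both and RRM2 higher in both, so 5 of the 9 (55.6%) had the same direction, against 67.3% of all 1327 genes called in both. The sign of the authors' deposited table was itself read from agreement between the library types, so these shares are not independent of that choice, and with the ratio turned 4 of the 9 would have the same direction. MCM7, PCNA, RFC5 and RPA1 were higher in rRNA-depleted RNA and lower in the authors' deposited table. PCNA and MCM7 were 2 of the genes whose rise depended on scaling. Over the 39 genes the Spearman correlation of the 2 changes was 0.18, and over all 12498 genes it was 0.19, across genes that share libraries.

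**Figure D4:**
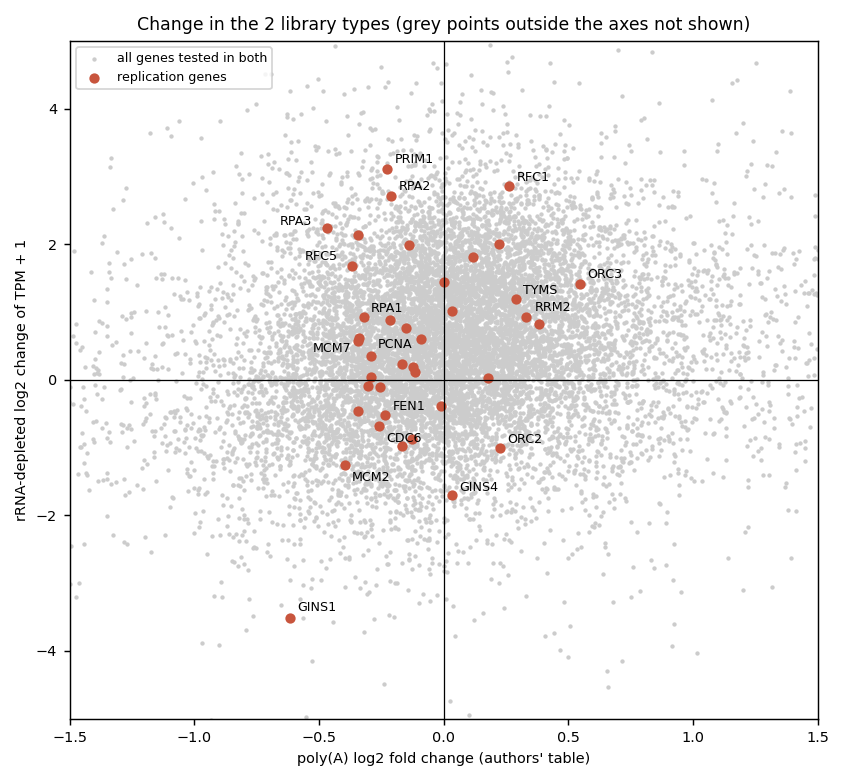
Change in the rRNA-depleted libraries (vertical, log2 of TPM + 1) against that of the poly(A) libraries (horizontal, log2 fold change of the authors' deposited table), with replication genes in red and all genes tested in both in grey. Of the 39 genes, 27 lie left of 0 and GINS1 stands apart at the lower left, while RPA3, RFC5, RPA1, PCNA and MCM7 lie at the upper left.

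The rRNA-depleted change followed the GC content of the transcript, among these genes as among all. The GC content of the longest transcript was 37.7% to 65.0% over the 39 genes, and its Spearman correlation with the change was -0.42, against -0.37 over 14669 genes. The 13 genes lowest in GC (37.7% to 43.5%), among them ORC4, RFC3, PRIM2, RFC1 and GINS1, had a median log2 change of 1.41. The 13 in the middle had a median of 0.56. The 13 highest in GC (49.8% to 65.0%), among them MCM2, MCM7, FEN1 and LIG1, had a median of 0.12. With the trend removed from each library, the medians were 0.82, 0.19 and 0.50, against 0.47 for all genes. In that setting 13 of the 39 genes were higher and 6 lower. Over the whole set 4540 of 14669 genes were called there, a count not split by direction. GINS1 was then at -4.00, MCM2 at -0.75 and RFC1 at 2.38, each past the threshold, and MCM7 was at 1.11 (limma adjusted p = 0.00181).

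**Figure D5:**
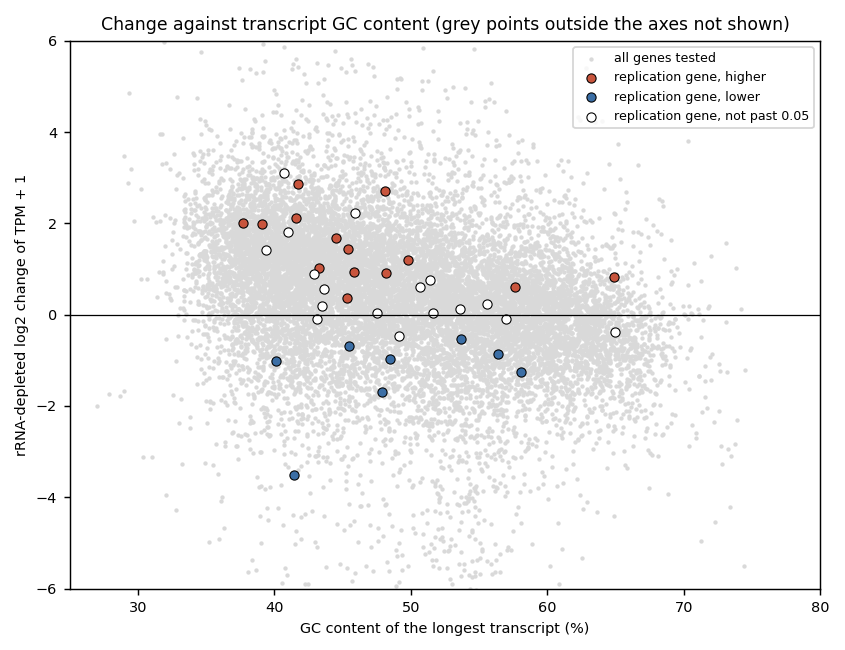
Change in the rRNA-depleted libraries (vertical, log2 of TPM + 1) against the GC content of the longest transcript (horizontal, percent), with replication genes filled red where higher, blue where lower and white where they did not pass, and all genes tested in grey. The 13 replication genes lowest in GC have a median of 1.41 and the 13 highest one of 0.12, while GINS1, at 41.4% GC, lies at -3.51.

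Other genes of the pathway showed both directions in rRNA-depleted RNA, as all genes did (22.9% higher and 12.4% lower). Of 27 further fork, licensing and processing factors 8 rose and 3 fell, of 16 further nucleotide supply genes 4 rose and 3 fell, and of 26 tested genes of G1/S control 6 rose and 3 fell, shares near those of all genes. TOPBP1, a scaffold for origin firing, rose by 2.45 (limma adjusted p = 0.00388), and CDC7, the kinase that fires origins, had no more than 3 reads in any wild-type library and was at least 4.79-fold higher. DONSON (-1.15) and CHTF18 (-1.10), a fork protein and a subunit of an alternative clamp loader, fell. With the GC trend removed CHTF18 was at -0.30 and did not pass (limma adjusted p = 0.373). Among nucleotide genes NME2 fell by 2.32 (limma adjusted p = 0.00425), while RRM2B (1.64) and UMPS (1.64) rose. NME2 had 3, 5 and 2 reads in the knockout label, and RRM2B 4, 3 and 5 in the wild type. With thinned reads RRM2B was at 0.66 and did not pass (limma adjusted p = 0.281), and UMPS was at 1.48 (limma adjusted p = 0.0506). RB1, the repressor of E2F, rose by 2.61 (limma adjusted p = 0.00551) and CCNE2, a G1/S cyclin, by 2.79. Both rest on few wild-type reads, about 6, 4 and 4 for RB1 and 2, 1 and 4 for CCNE2. CDKN2A (-1.68) and CDKN2C (-1.39), inhibitors of the cyclin D kinases, fell.

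The further polymerase subunits counted 2 that rose (POLE2, 1.28, and POLE3, 1.13) and 1 that fell (POLE4, -1.27) of 7. The POLE2 call was lost under 11 of 15 alternatives, among them in limma the removal of wild-type library 2 (adjusted p 0.0834) or 3 (adjusted p 0.0768) and of knockout-labelled library 2 (adjusted p 0.057). Of 8 chromatin assembly and maintenance genes, DNMT1 rose (0.88), the histone chaperone ASF1A was at least 2.98-fold higher than 3 reads in the wild type, and CHAF1A fell (-0.80). With the GC trend removed CHAF1A was at -0.30 and did not pass (limma adjusted p = 0.165). Of 10 S phase checkpoint genes 3 rose, among them RAD17 (2.54) and ATR (1.88), and RAD1 (-0.96) and WEE1 (-0.83) fell. RAD17 had 4, 1 and 3 reads in the wild type. With thinned reads neither RAD17 (1.82, limma adjusted p = 0.0856) nor ATR (1.72, limma adjusted p = 0.0718) passed. Of the genes named in these pathway lists for rRNA-depleted RNA, NME2, POLE4 and DNMT1 kept their call without knockout-labelled library 3 and the others did not. UMPS also lost its call when wild-type library 1 was left out (limma adjusted p = 0.0589). ATR did not pass with median ratio scaling (1.56, limma adjusted p = 0.0552) or without wild-type library 2 (1.89, limma adjusted p = 0.0559).

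In the authors' deposited table, where 9.55% of all genes were higher and 10.3% lower, 5 of the 27 fork and licensing factors rose and 3 fell, led by TICRR (0.55) and MTBP (0.46), partners in origin firing, and by CHTF18 (-0.85) and GMNN (-0.33), the inhibitor of CDT1. For G1/S control the authors' deposited table had 2 of 26 higher, CCND1 (1.15, adjusted p = 1.72e-21) and CDC25A (0.89), and 5 lower, among them CDKN2A (-0.59) and CDKN1A (-0.51). Of 16 further nucleotide genes in the authors' deposited table, 2 rose, SAMHD1 (0.67) and RRM2B (0.40), and 5 fell, among them SHMT1 (-0.55) and NME1 (-0.52). POLD2 (-0.48), the second subunit of polymerase delta, fell in the authors' deposited table, and RAD17 (0.33) rose there. None of the 8 chromatin genes passed in the authors' deposited table.

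Of 8 mitotic markers, 6 rose and PLK1 fell in rRNA-depleted RNA, against 22.9% higher and 12.4% lower among all genes. With median ratio scaling 5 rose, and AURKA did not pass (0.06, limma adjusted p = 0.687). With the GC trend removed CDK1 (limma adjusted p = 0.0527), PLK1 (limma adjusted p = 0.0531) and AURKA (limma adjusted p = 0.169) did not pass. AURKB did pass in that setting (0.69, limma adjusted p = 0.0488). The summed level of the 8 markers was 1001 to 1200 TPM in the wild type and 1942 to 2156 TPM in the knockout label. MKI67, the proliferation antigen, rose by 1.31 (limma adjusted p = 0.00292). MKI67 was at 0.03 (adjusted p = 0.931) in the authors' deposited table. There 3 of the 8 markers rose and 2 fell, against 9.55% and 10.3% of all genes. The summed level of the 39 replication genes was 4118 to 4339 TPM in the wild type and 3827 to 4169 TPM in the knockout label, which overlap. The part of these markers in the replication results was not tested.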

How the data were processed

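RNA-seq was made from HMC3 cells in 16 libraries, whose titles and descriptions give genotype and library type. The submitters' processing notes name hg38, Trimmomatic, STAR and DESeq2, with no versions, roles or order, and whether counting used strand is not given in the sources used here. The authors deposited TPM per gene for the 6 rRNA-depleted libraries, with 0 sample columns unused. Of the 10 poly(A) libraries they gave 1 comparison: per the file headers it lists the mean normalized count (a signal over all libraries), log2 fold change, its SE on the log2 scale, test statistic (a score), p-value and adjusted p-value of each gene. A count fit for the poly(A) libraries had been foreseen only if counts were given, and the authors' deposited table was described instead, with no test of its own.

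A linear model with a mean trend in its variance (limma 3.58.1, R 4.3.3) was fitted to log2(TPM + 1) of the 14789 genes that reached 1 TPM in 3 or more of the 6 libraries, with Benjamini-Hochberg adjustment over all of them at 0.05. Gene lengths, positions, antisense overlaps and GC content were taken from GENCODE 29 (GRCh38), where 56927 of 60669 genes were found (93.8%). With these lengths 90.9% of TPM values above 0 were whole reads to within 0.02 reads, which gave the depth of each library. For 5 of the 39 genes (MCM4, CDC6, POLD1, RFC1 and RRM2) the values were not whole to within 0.05 reads, so their read numbers are approximate. Knockout-labelled libraries 1 and 2 were averaged before the fit. The fit was run on simulated reads with known changes, and the averaging was not simulated. Named pseudogenes exist for 7 of the genes (FEN1, PCNA, RFC3, RFC5, RPA2, RRM2 and TYMS), and the authors' counting may have split reads between a gene and its copies.

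The 39 genes, the pathway lists and the markers were chosen with earlier results of these data known. Besides METTL3, MKI67 and all 39 genes, the text names, for each pathway list and library type, up to 2 genes with the largest rise and up to 2 with the largest fall among those past the threshold whose libraries do not overlap where single values exist, and the markers at 0 in every library or highest in their list. A gene that this rule selects is not reported here. The other genes named as markers or antisense neighbours, such as PLK1, were named after their values were seen. Alternatives covered pseudocount, filter, scaling, GC trend, read-based fits, thinning, threshold, replicate block and each library left out. Other steps used Python 3.11.15 with scipy 1.17.1, numpy 2.4.6, pandas 2.3.3 and matplotlib 3.10.9.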

Additional observations from a re-analysis of the deposited data

How the results depend on the processing

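Of the replication genes, MCM2, MCM4, GINS1, PRIM2, RFC1 and RPA1 kept their call in all 15 alternatives of the rRNA-depleted comparison. The 14 higher genes became 8 with median ratio scaling, 8 with reads thinned to the shallowest library and 5 at an adjusted p threshold of 0.01, and 4 to 15 when 1 library was left out. The 8 lower genes became 5 at 0.01, and 3 to 9 when 1 library was left out. The 5220 genes called in all became 2242 at 0.01, and 1663 to 5185 when 1 library was left out. The lowest of each range came without knockout-labelled library 3, where the lone sample is assumed to vary like the others. In the authors' deposited table the 2782 genes called became 1811 at 0.01, with 2 replication genes higher and 10 lower. With 6 separate libraries 19 genes were higher and 8 lower, and 6880 genes were called in all. With voom 18 were higher and 11 lower, and 7373 genes were called in all. Same-numbered libraries did not deviate together (r of -0.02 to 0.02). A pairing by number was thus not seen, though at these depths counting noise could hide one. A replicate block gave 19 higher, 9 lower and 6037 genes in all. Changes of sign occurred only for genes that did not pass. With median ratio scaling MCM3 was at -0.31, ORC6 at -0.32, POLE at -0.11, RFC2 at -0.23 and RRM1 at -0.17. With voom MCM3 was at -0.23, ORC6 at -0.027, POLE at -0.027 and RFC2 at -0.16. With thinned reads MCM3 was at -0.18 and RRM1 at -0.093. With the GC trend removed MCM5 was at 0.40, POLD1 at 0.40, ORC6 at -0.10 and RRM1 at -0.20, and ORC6 was at -0.22 with quantile normalization. With 1 library left out, MCM5 reached 0.022 and MCM6 0.068, ORC6 lay between -0.14 and 0.35, and RFC2 between -0.045 and 0.39. The cause of these changes was not tested. The tests on counts of single poly(A) libraries were not run, since the authors' deposited table holds no value per library. Depth limits the genes with under 10 wild-type reads, and intervals from reads would cover counting error only.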
